A study of Mus musculus with 10 samples.

Results

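Type I interferon-stimulated genes were followed in the aortae of young and old mice. The group was a list of 39 gene symbols that was looked up in the deposited count table, which holds 55453 symbols, and all 39 were found. Expression was measured by sequencing poly(A) RNA from whole aortae of male C57BL/6 mice, with 5 young mice of 14.5 weeks and 5 old mice of 92.5 weeks, and 1 library per mouse. The labels name no transgene and no treatment, and the vessels had been perfused with saline and freed of the surrounding fat. Each library held 19640401 to 22886153 counts on genes. Within a group, squared differences between 2 libraries were 8.13 to 59.5 times those of counting error (chi-square per degree of freedom, over 20 pairs). Each library was therefore a sample of its own.

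Type I interferons are cytokines that infected or damaged cells secrete. They bind the receptor built from IFNAR1 and IFNAR2, whose kinases JAK1 and TYK2 phosphorylate STAT2, which joins IRF9 in a complex that binds the interferon-stimulated response element (ISRE) before the genes described here. The products sense foreign nucleic acid, degrade RNA, block translation of viral messages, hold back virus entry or budding, and feed back on the pathway. Vascular cells and the macrophages of the vessel wall can both run this program.

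The ISRE is read from sequence here as a description of the list. Genes listed for their response to type I interferon would often hold it by that definition, so its share is no independent support. Its core was searched as GAAANNGAAA on either strand, where N is any base. Promoter windows were taken from RefSeq (GRCm38.p6) and run from 250 bases before to 50 bases after the transcription start. Of the 39 members, 29 had such a window, and 15 of these (51.7%) held the core, against 3.99% of all 27025 symbols with a window. A second pattern that was searched, GAS (TTCNNNGAA), was held by 6 of the 29 members (20.7%), against 9.55% of all symbols with a window. For Dhx58, Ifi27l2a, Mx1, Mx2, Oas2, Parp14, Parp9, Rtp4, Usp18 and Zbp1 no window was used here.

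The following stretches before the start show the core in capitals, from the 25 bases before the first match to the 25 bases after the last or to the start. Ifit3, Ifit3b, Ifit1, Isg15 and Trim30a stand for members that were higher in old aortae, and Oas1a, Bst2 and Rsad2 for members with the same core that did not pass the test. Bases are counted back from the start and written along the gene's own strand, so that a core on the opposite strand reads as TTTC, any 2 bases and TTTC.
Ifit3, bases −181 to −88, chr19:34583348-34583441, plus strand: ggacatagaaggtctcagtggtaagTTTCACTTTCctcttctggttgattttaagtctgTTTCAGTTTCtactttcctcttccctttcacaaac
Ifit3b, bases −213 to −120, chr19:34607744-34607837, plus strand: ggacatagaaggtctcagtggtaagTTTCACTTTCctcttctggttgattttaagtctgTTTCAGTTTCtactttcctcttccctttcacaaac
Ifit1, bases −129 to −51, chr19:34640760-34640838, plus strand: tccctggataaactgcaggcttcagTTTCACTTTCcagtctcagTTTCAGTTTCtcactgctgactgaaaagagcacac
Isg15, bases −103 to −32, chr4:156200850-156200921, minus strand: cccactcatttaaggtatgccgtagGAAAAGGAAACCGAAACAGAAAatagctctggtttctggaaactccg
Trim30a, bases −61 to −2, chr7:104465195-104465254, minus strand: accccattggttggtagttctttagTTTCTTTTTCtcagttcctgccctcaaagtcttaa
Oas1a, bases −45 to −1, chr5:120907526-120907570, minus strand: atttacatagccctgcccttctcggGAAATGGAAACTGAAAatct
Bst2, bases −155 to −90, chr8:71537562-71537627, minus strand: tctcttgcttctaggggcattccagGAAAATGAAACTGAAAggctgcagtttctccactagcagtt
Rsad2, bases −145 to −86, chr12:26456538-26456597, minus strand: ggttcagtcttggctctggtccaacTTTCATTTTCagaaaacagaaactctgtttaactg

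Ifit3 and Ifit3b carried the same 94 bases, identical at all 94 positions, and each had 2 cores on the opposite strand. Ifit1, in the same cluster, had 2 cores in the same direction. In the Isg15 promoter 3 matches overlapped in a run of GAAA repeats, while those of Oas1a and Bst2 held 2 overlapping matches each. The core was not confined to called members. Among the members with a window, 7 of 12 called higher in old aortae held it (58.3%), as did 8 of 17 others (47.1%). Of those 8, Oas3 was not tested and the others had log2 fold changes (old over young) above 0, from 0.22 (Stat2) to 1.27 (Rsad2). In 11 members at least 1 match began before the start, and in the other 4 (Ddx58, Ifitm3, Eif2ak2 and Ifih1) it began past it. A match is a description of letters and not a bound site.

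**Figure D1:**
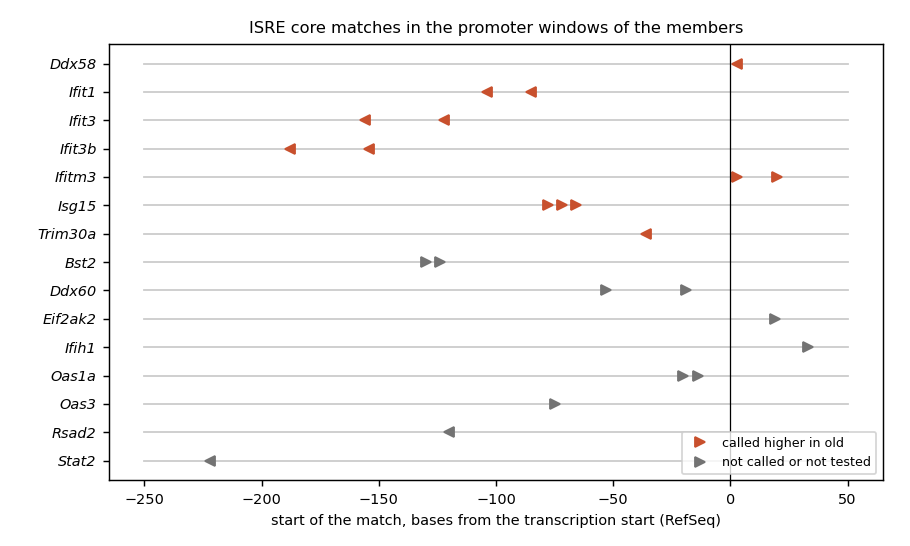
Start of each GAAANNGAAA match in bases from the transcription start (x axis, 0 at the start) for the 15 members whose RefSeq window held one. Arrowheads point along the gene where the core is on its own strand and against it where it is on the other, orange marks the 7 members called higher in old aortae and grey the 8 others, and 1 match in a second start window of Trim30a is left out. Matches began from −188 to 20 in the called members and from −222 to 33 in the others.

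Old and young aortae were compared gene by gene with edgeR's quasi-likelihood test on the counts, and a gene was called at a Benjamini-Hochberg adjusted p below 0.05 over all tested genes, the adjusted p given throughout. Of the 39 members, 38 passed the low-count filter and were among the 14614 genes tested. In old aortae 16 members were called higher and none lower by edgeR, and none was called lower by DESeq2 or limma-voom. Over all tested genes the share called higher was 6.48% and the share called lower 4.99%, whereas 42.1% of the tested members were called higher. At an unadjusted p below 0.05, 25 of the 38 differed, all 25 of them higher in old aortae. The median log2 fold change (old over young) of the tested members was 0.44, that of all tested genes was 0.0034, and 36 of 38 members were above 0, as were 50.8% of all tested genes. Each of the 16 called members passed the filter level in all 5 young libraries, so that none was tested only because it was high in old aortae. Of the others, Rsad2, Mx1, Oasl1 and Oas3 did not reach that level in every young library.

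Every role but 1 held at least 1 called member. All 4 IFIT genes were called, 3 of 6 nucleic acid sensors, 2 of 4 tested OAS genes, 1 of 2 Mx genes, 1 of 3 transcription factors, 1 of 4 genes of ISG15 and its conjugation, none of 3 genes of the PARP and DTX3L group, and 4 of 12 other effectors. In 10 members the normalized counts of all 5 old aortae lay above those of all 5 young aortae, a pattern shown by 5.37% of all tested genes. No member showed the opposite pattern, which 4.55% of all tested genes did. Log2 fold changes of the called members ran from 0.37 to 1.52, and 5 of the 16 exceeded 1.

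**Figure D2:**
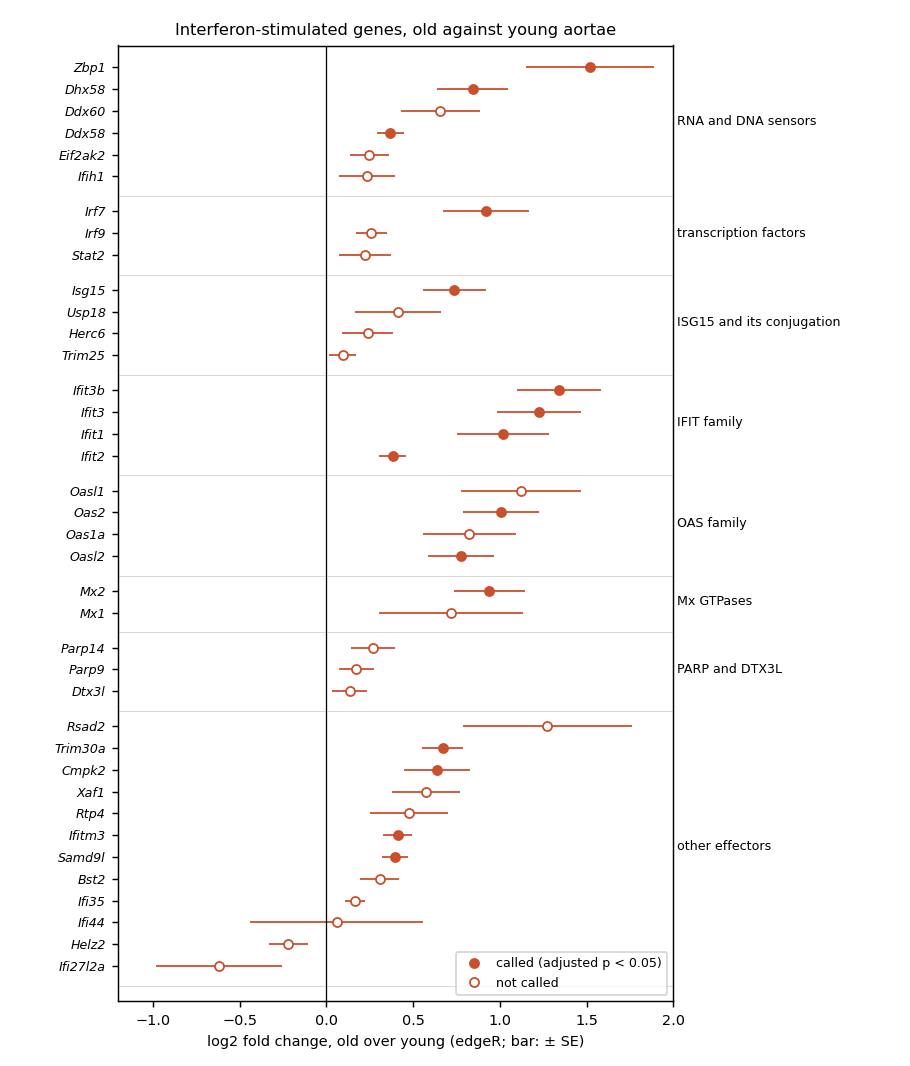
Log2 fold change of old over young aortae (x axis, edgeR estimate, bars ± SE) for the 38 tested members, grouped by role and ordered by size within a role. Filled points are the 16 called members, all to the right of 0, and open points are the 22 that were not called, of which Helz2 and Ifi27l2a lie to the left of 0.

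The IFIT proteins bind foreign RNA and keep it from being translated, and their genes lie in a cluster on chromosome 19. Levels are given from here on as normalized counts, the raw counts scaled by DESeq2 size factors, in the order of replicates 1 to 5. Ifit3 (chr19:34583531-34588731) had 230.0, 176, 294, 115 and 137 normalized counts in the young aortae. In the old aortae Ifit3 had 422, 458, 558, 319 and 459.9, every one above the highest young aorta. Ifit3 averaged 190.5 ± 72.5 in young and 443 ± 86.0 in old aortae (mean ± SD, n = 5 each), a log2 fold change of 1.23 (standard error 0.24, adjusted p = 0.00873 in edgeR's test). Its near copy Ifit3b (chr19:34607970-34613401) stood at 73.6, 40.3, 64.8, 34.8 and 41.0 in young and 123, 139, 171, 80.0 and 128 in old aortae. Ifit3b differed by 1.34 (standard error 0.24, adjusted p = 0.00339 in edgeR's test), again without overlap of the groups. In both genes old replicate 3 was the highest and old replicate 4 the lowest of the old aortae. Their transcripts share much sequence, as 51.2% of the 50-base windows of Ifit3 and 45% of those of Ifit3b occur in transcripts of other genes, mostly in each other, so that their separate counts are uncertain.

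Ifit2 was the most abundant of the family per kilobase of exon, with 138 normalized counts per kilobase in young aortae against 109 for Ifit3, 28.9 for Ifit1 and 25.4 for Ifit3b. Its normalized counts were 550.0, 492, 562, 478 and 623 in young and 712, 749, 708, 660.4 and 675 in old aortae. The groups of Ifit2 did not overlap, yet the log2 fold change was 0.38 (standard error 0.08, adjusted p = 0.00653 in edgeR's test), the smallest of the 4. Ifit1 had 91.0, 77.5, 119, 54.1 and 43.0 in young and 177, 171, 179.9, 90.6 and 156 in old aortae. Young replicate 3 exceeded old replicate 4, the old aorta that stood far below the other 4, and the groups of Ifit1 therefore overlapped. The log2 fold change of Ifit1 was 1.02 (standard error 0.26, adjusted p = 0.0275 in edgeR's test). This call was lost in 8 of 18 alternatives, 7 of which left out 1 mouse (young replicate 2, 4 or 5, or old replicate 1, 2, 3 or 5), with adjusted p of 0.0501 to 0.0713.

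Among the sensors, Zbp1, which recognises nucleic acid in the Z form and can trigger cell death, showed the largest fold change of all 38 tested members. Its normalized counts were low, at 34.8, 29.2, 29.9, 21.2 and 10.2 in young aortae. In old aortae Zbp1 had 54.0, 122, 69.9, 30.9 and 82.6, with old replicate 2 far up and old replicate 4 inside the young range. Zbp1 averaged 25.1 ± 9.60 in young and 71.9 ± 34.1 in old aortae (mean ± SD, n = 5 each), a log2 fold change of 1.52 (standard error 0.37, adjusted p = 0.019 in edgeR's test). Without young replicate 4 the adjusted p of Zbp1 was 0.0543.

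Ddx58 encodes RIG-I, the cytosolic sensor of viral RNA ends, and Dhx58 encodes LGP2, its regulator. The young aortae had 674, 566, 742, 616 and 603 normalized counts of Ddx58, and the old aortae had 898, 785, 807, 852 and 765. No old aorta was as low as a young one, and the log2 fold change of Ddx58 was 0.37 (standard error 0.08, adjusted p = 0.00952 in edgeR's test). For Dhx58 the young aortae had 49.1, 44.3, 48.9, 35.7 and 40.0 and the old ones 79.9, 73.0, 110.0, 76.2 and 49.6. The groups of Dhx58 were separated by less than 1 normalized count, since old replicate 5 stood just above young replicate 1, while old replicate 3 was the highest. Dhx58 changed by 0.84 (standard error 0.20, adjusted p = 0.0179 in edgeR's test), with an adjusted p of 0.0517 without young replicate 4. The other sensors did not pass the test. Ddx60, a helicase that assists RIG-I, had a log2 fold change of 0.66 (standard error 0.23, adjusted p = 0.0777 in edgeR's test), Eif2ak2 (the kinase PKR, which halts translation) 0.25 (standard error 0.11, adjusted p = 0.175 in edgeR's test) and Ifih1 (the RNA sensor MDA5) 0.23 (standard error 0.16, adjusted p = 0.391 in edgeR's test).

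The 3 transcription factors of the list did not share a size of change. Irf7, the factor that interferon induces and that amplifies further interferon transcription, had 133, 70.4, 129, 75.3 and 87.1 normalized counts in young and 198, 266, 206, 114 and 148 in old aortae. Old replicate 2 was the highest and old replicate 4 fell within the young range. Irf7 averaged 98.9 ± 29.8 in young and 186 ± 58.3 in old aortae (mean ± SD, n = 5 each), a log2 fold change of 0.92 (standard error 0.25, adjusted p = 0.031 in edgeR's test). The call was lost in 7 of 18 alternatives, among them the omission of young replicate 2, 4 or 5 or of old replicate 1, 2 or 3, with adjusted p of 0.0629 to 0.0817. Irf9 and Stat2, the partners in the ISRE-binding complex, had log2 fold changes of 0.26 (standard error 0.09, adjusted p = 0.0855 in edgeR's test) and 0.22 (standard error 0.15, adjusted p = 0.387 in edgeR's test).

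Isg15, a ubiquitin-like protein that is attached to other proteins, had 82.8, 74.5, 84.7, 50.2 and 47.1 normalized counts in young aortae (chr4:156199424-156200818). Old aortae had 124, 119.9, 118, 94.5 and 106, all above the young ones. The log2 fold change of Isg15 was 0.74 (standard error 0.18, adjusted p = 0.019 in edgeR's test), with an adjusted p of 0.0507 when young replicate 4 was omitted. The other listed genes of ISG15 and its conjugation were not called. Herc6, a ligase for ISG15, differed by 0.24 (standard error 0.15, adjusted p = 0.33 in edgeR's test), and Usp18, which removes it and also inhibits the receptor, by 0.41 (standard error 0.25, adjusted p = 0.314 in edgeR's test). Trim25, a ubiquitin ligase that acts on RIG-I, differed by 0.09 (standard error 0.08, adjusted p = 0.494 in edgeR's test).

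The OAS enzymes make short adenylate chains that switch on the ribonuclease RNase L. Oas2 had 91.0, 71.4, 53.8, 54.1 and 63.5 normalized counts in young and 142, 201, 104, 89.7 and 132 in old aortae. Only old replicate 4 lay below the highest young aorta, and by little. The log2 fold change of Oas2 was 1.01 (standard error 0.22, adjusted p = 0.0109 in edgeR's test). Oasl2, an OAS-like protein, had 233, 191, 255, 118 and 165 in young and 371, 389, 304, 248 and 331 in old aortae. Here too old replicate 4 was the lowest of its group and stood below young replicate 3. Oasl2 differed by 0.78 (standard error 0.19, adjusted p = 0.021 in edgeR's test), with an adjusted p of 0.0523 without young replicate 2 and of 0.0560 without young replicate 5. Oasl1, which restrains translation of Irf7, had few counts and a log2 fold change of 1.12 (standard error 0.34, adjusted p = 0.0521 in edgeR's test), just outside the threshold. Oas1a differed by 0.82 (standard error 0.27, adjusted p = 0.0634 in edgeR's test), and 57.6% of its 50-base windows occur in other transcripts, mostly of Oas1g. Oas3 failed the filter, at 5.11, 7.04, 14.0, 7.73 and 1.02 normalized counts in young and 16.0, 17.4, 5.59, 5.78 and 4.86 in old aortae, with the groups overlapping throughout (exact two-sided permutation test, p = 0.405, n = 5 each).

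The Mx proteins are dynamin-like GTPases that trap viral particles. Mx2 had 34.8, 21.1, 22.9, 26.1 and 28.7 normalized counts in young and 54.0, 58.8, 41.0, 59.8 and 41.8 in old aortae. The groups did not overlap, and here the order of the old aortae differed from that of the IFIT and OAS genes, with old replicate 4 the highest. Mx2 had a log2 fold change of 0.94 (standard error 0.20, adjusted p = 0.0101 in edgeR's test). The GENCODE annotation lists Mx2 as a polymorphic pseudogene. Only RNA was measured for the Mx genes, so whether these mice make a working Mx protein was not tested. Mx1 averaged 12.5 ± 8.42 in young and 20.5 ± 5.56 in old aortae (mean ± SD, n = 5 each) and was not called, with a log2 fold change of 0.72 (standard error 0.42, adjusted p = 0.298 in edgeR's test).

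Parp14, Parp9 and Dtx3l encode ADP-ribosyltransferases and a partner ubiquitin ligase. Parp14 had the highest mean count of these, with 757, 709, 855, 539.8 and 536 normalized counts in young and 752, 911, 712, 854 and 838 in old aortae. Young replicate 3 was higher than 4 of the 5 old aortae. The log2 fold changes were 0.27 (standard error 0.13, adjusted p = 0.208 in edgeR's test) for Parp14, 0.17 (standard error 0.10, adjusted p = 0.303 in edgeR's test) for Parp9 and 0.13 (standard error 0.10, adjusted p = 0.441 in edgeR's test) for Dtx3l. None of the 3 was called by edgeR, DESeq2 or limma-voom, and none had an unadjusted p below 0.05 in edgeR's test. The exons of Parp9 and Dtx3l overlap on opposite strands, and the strand setting of the counting is not given in the sources used here.

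Trim30a, a ubiquitin ligase that dampens NF-kB signalling, had the smallest adjusted p of the members. Its normalized counts were 218, 161, 240.3, 171 and 165 in young and 303, 324, 291, 304 and 291 in old aortae. The old aortae were alike, from 290.7 to 324, and all lay above the young. The log2 fold change of Trim30a was 0.67 (standard error 0.12, adjusted p = 0.00277 in edgeR's test). Samd9l, a growth-restraining antiviral protein, had 1240.0, 1172, 1519, 1207 and 1259 in young and 1641, 1655, 1806, 1735 and 1540.0 in old aortae. Young replicate 3 stood far above the other young aortae and came close to the lowest old one. Samd9l differed by 0.40 (standard error 0.07, adjusted p = 0.00465 in edgeR's test).

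Ifitm3, a membrane protein that blocks entry of viruses, was the most abundant member per kilobase of exon, at 3987 normalized counts per kilobase in young and 5269 in old aortae. Its normalized counts were 2968, 2628, 2885, 2523 and 2511 in young and 3229, 4086, 3783, 3044 and 3719 in old aortae. Every old aorta was above every young one, with old replicate 2 the highest. The log2 fold change of Ifitm3 was 0.41 (standard error 0.08, adjusted p = 0.00764 in edgeR's test), and 10.0% of its 50-base windows occur in other transcripts, mostly of Gm7676. Cmpk2, a mitochondrial nucleotide kinase, had 193, 101, 175, 97.5 and 115 in young and 239.8, 221, 225, 189 and 179 in old aortae. Young replicate 1 lay above old replicates 4 and 5. Cmpk2 was the call nearest the threshold, at 0.64 (standard error 0.19, adjusted p = 0.0487 in edgeR's test). It was lost in 9 of 18 alternatives, with adjusted p of 0.0544 to 0.114, including the omission of any mouse but young replicate 1 or 3.

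Ifi27l2a, a small membrane protein, was the second most abundant member per kilobase, and its fold change was below 0. Its normalized counts were 3469, 1066, 1282, 1737 and 979.5 in young and 930.4, 1648, 1056, 843 and 1044 in old aortae. Young replicate 1 was higher than any other aorta, and old replicate 2 stood apart among the old ones. The log2 fold change of -0.62 was not called (standard error 0.36, adjusted p = 0.322 in edgeR's test), and over the fits that left out 1 mouse it ran from −0.82 to −0.19. Bst2, or tetherin, which holds budding virus on the cell, was the third by level per kilobase. The young aortae had 563, 489, 637, 502 and 483 normalized counts of Bst2 and the old ones 617, 817, 646, 539.9 and 671. Its groups overlapped, and the log2 fold change was 0.31 (standard error 0.11, adjusted p = 0.0917 in edgeR's test).

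The other effectors were not called. Rsad2, or viperin, which makes a nucleotide that stops viral RNA chains, had the largest fold change among them, 1.27 (standard error 0.49, adjusted p = 0.121 in edgeR's test). Xaf1 differed by 0.57 (standard error 0.19, adjusted p = 0.0769 in edgeR's test), Rtp4 by 0.47 (standard error 0.23, adjusted p = 0.199 in edgeR's test), Ifi35 by 0.17 (standard error 0.06, adjusted p = 0.0946 in edgeR's test) and Ifi44 by 0.06 (standard error 0.50, adjusted p = 0.958 in edgeR's test). Helz2, a helicase and nuclear receptor coactivator, was below 0 at -0.22 (standard error 0.11, adjusted p = 0.234 in edgeR's test), and without old replicate 2 it was called lower, at −0.33 with an adjusted p of 0.0440. Of the 22 tested members without a call, 9 had an unadjusted p below 0.05.

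**Figure D3:**
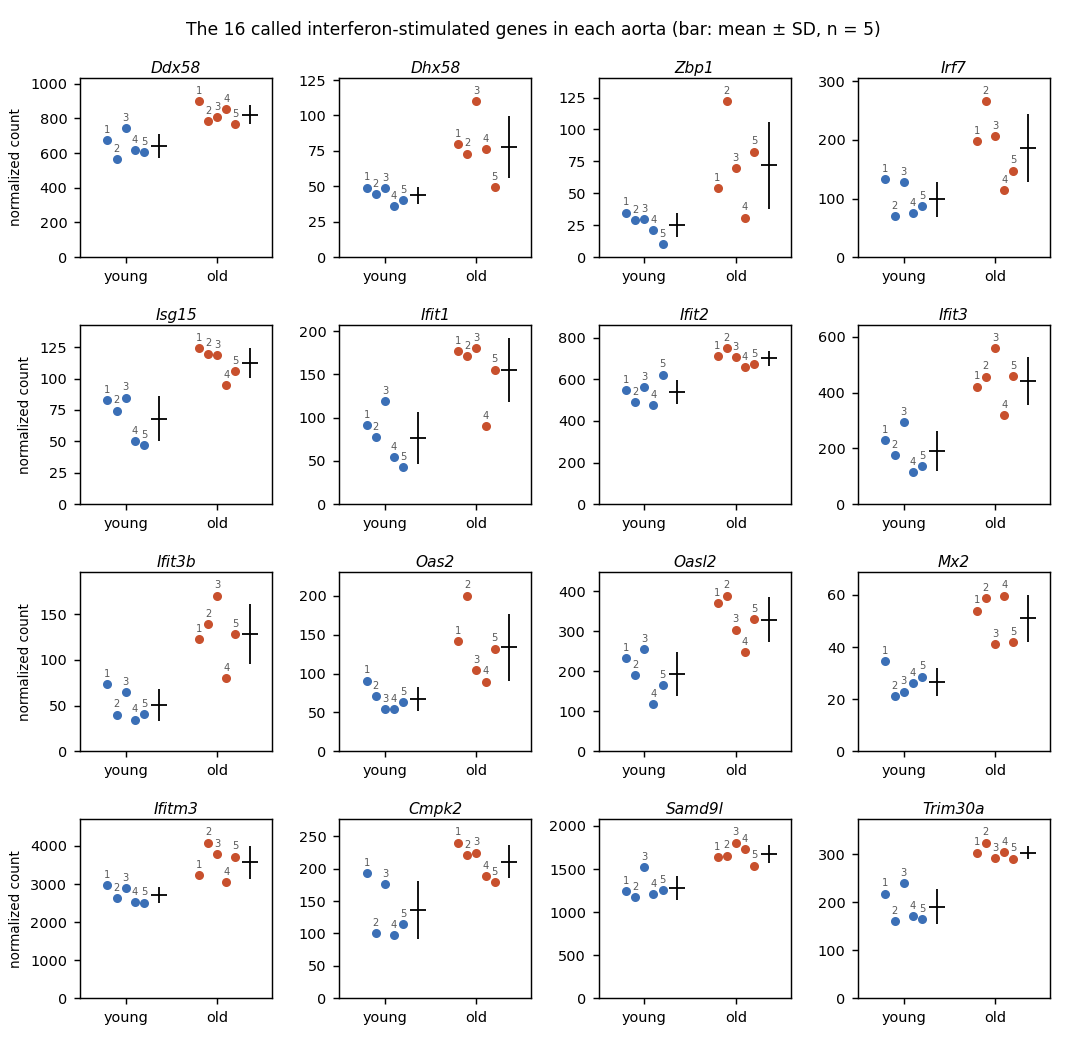
Normalized counts (y axis, from 0, own scale in each panel) of the 16 called members in each young (blue) and old (orange) aorta, with points numbered by replicate and a bar for mean ± SD of 5 mice. In the 10 genes without overlap every old point lies above every young one, and old replicate 4 is the lowest old point in 5 of the other 6, Cmpk2 being the exception.

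How far the calls rested on single mice was examined by leaving each out. Between 10 and 20 members were then called higher, the lowest without young replicate 4 and the highest without young replicate 3. In these fits 4.46% and 6.05% of all tested genes were called higher, and over all fits without 1 mouse this share ran from 4.46% to 8.33%. In all 18 alternatives at the same threshold 9 members were called: Ifit2, Ifit3, Ifit3b, Mx2, Oas2, Ddx58, Ifitm3, Samd9l and Trim30a. All 16 called members were above 0 in all 18. DESeq2 called 20 members, the 16 and Ddx60, Oas1a, Rsad2 and Xaf1, and 7.24% of all the genes it tested were called higher. Without both old replicates 2 and 3, a fit chosen after seeing the data because these libraries stood apart in measures given below, 7 of the 16 remained called (Ddx58, Ifit2, Ifit3b, Mx2, Oas2, Samd9l and Trim30a), with 3.74% of all tested genes called higher in that fit.

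A score was formed for each library as the mean over the 39 members of log2(normalized count + 1). It was 7.43, 7.06, 7.47, 6.92 and 6.80 in young replicates 1 to 5 and 7.73, 8.00, 7.68, 7.40 and 7.59 in old replicates 1 to 5. The scores averaged 7.14 ± 0.300 in young aortae and 7.68 ± 0.220 in old ones (SD, n = 5 each), a difference of 0.55. Old replicate 4, at 7.40, lay below young replicates 1 and 3, and the groups overlapped there. The same mean over all tested genes was 8.41 ± 0.0311 in young aortae and 8.43 ± 0.0132 in old ones. No p is given for the score, since the members were chosen with results of these data known.

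The members shared many of their highest and lowest mice within a group. Of the 39, 24 (61.5%) had their highest old value in old replicate 2, which held the highest old value of 23.5% of all tested genes, and 22 (56.4%) had their lowest old value in old replicate 4, against 15.5% of all tested genes. Among young aortae, replicate 1 held the highest value of 16 members (41.0%, against 28.5% of all tested genes), replicate 3 that of 20 (51.3%, against 19.2%), and replicate 5 the lowest value of 17 (43.6%, against 19.0%). Old replicate 2 also had a mitochondrial share of counts of 11.0%, where the other 9 libraries were at 4.50% to 6.51%. Its part in the members' values was not tested. Without old replicate 2, 13 members were called higher and the score difference was 0.46.

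**Figure D4:**
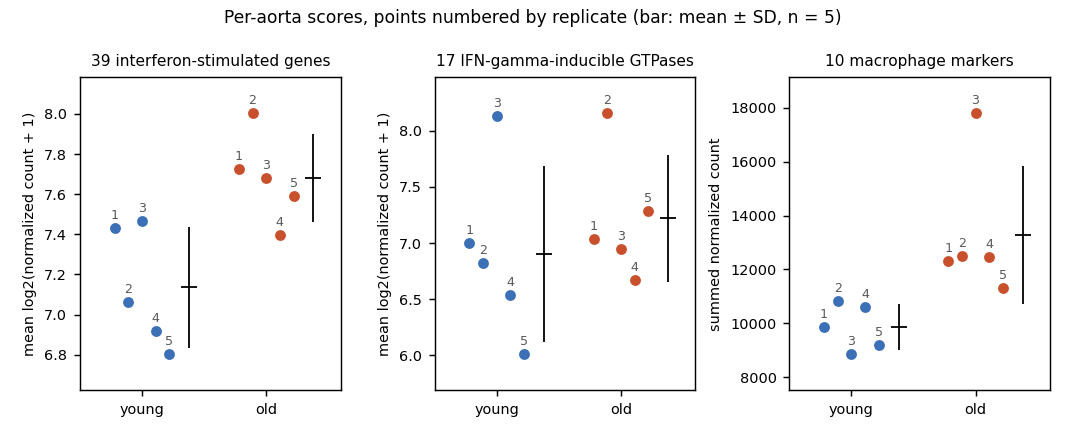
Per aorta, the mean log2(normalized count + 1) of the 39 members (left), that of 17 GTPases inducible by interferon gamma (middle) and the summed normalized counts of 10 macrophage markers (right), for 5 young (blue) and 5 old (orange) mice numbered by replicate, with mean ± SD. Old replicate 2 is highest in the left and middle panels, young replicate 3 is about as high in the middle panel, and old replicate 3 is highest in the right panel. The y axes do not start at 0.

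The genes above and beside the members in the pathway were counted from lists. Messages of the ligands were at or near 0. Of 18 type I interferon genes, 14 had no count in any library, and the other 4 had 4 counts in young and 2 in old aortae in all. Ifnb1, the interferon that most cell types make first, had 0 counts in every library, which at these depths allows a level of up to 0.131 to 0.153 CPM (3 counts of the library's total, counting error only). Ifng, the type II interferon, had 1 count in 1 old aorta, and Ifnl2 and Ifnl3, the type III interferons, had none.

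Of 6 receptor genes 1 was called, which is Ifnlr1, the chain specific to type III interferons. It had 59.3, 26.2, 30.9, 29.9 and 19.5 normalized counts in young and 85.9, 106, 92.3, 98.3 and 88.5 in old aortae. The lowest old aorta exceeded the highest young one, and the log2 fold change of Ifnlr1 was 1.51 (standard error 0.24, adjusted p = 0.0016 in edgeR's test), called in all 18 alternatives. The chains of the type I receptor did not pass the test: Ifnar1 averaged 1121 ± 49.6 and 1099 ± 73.0 normalized counts in young and old aortae (SD, n = 5 each), with a log2 fold change of -0.02 (standard error 0.06, adjusted p = 0.862 in edgeR's test). For Ifnar2 the averages were 551 ± 26.2 and 591 ± 32.0, with a log2 fold change of 0.11 (standard error 0.06, adjusted p = 0.293 in edgeR's test).

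Of 9 kinases and transcription factors examined, 2 were called higher. Tyk2, a kinase of the type I receptor, had 836, 705, 669, 705 and 711 normalized counts in young and 930.4, 1004, 836, 768 and 876 in old aortae, and young replicate 1 exceeded old replicate 4. Tyk2 differed by 0.29 (standard error 0.08, adjusted p = 0.0344 in edgeR's test). Irf5, a factor downstream of Toll-like receptors that macrophages express, had 138, 116, 107, 94.6 and 90.2 in young and 145, 173, 239.5, 153 and 148 in old aortae. Irf5 did not overlap between the groups and differed by 0.66 (standard error 0.17, adjusted p = 0.0201 in edgeR's test). Irf3, the factor that starts interferon transcription, differed by 0.13 (standard error 0.09, adjusted p = 0.354 in edgeR's test).

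Of 13 genes of interferon induction 1 was called, Tlr7, the endosomal sensor of single-stranded RNA. Its normalized counts were 70.5, 69.4, 70.8, 86.9 and 85.0 in young and 125, 134, 199, 121 and 88.5 in old aortae, where old replicate 3 was the highest and none fell into the young range. Tlr7 differed by 0.81 (standard error 0.19, adjusted p = 0.0154 in edgeR's test). Of 12 negative regulators, Trex1 was listed at 0 in every library. What gave that 0 was not examined, and it is not read as a lack of expression. Of the other 11, 1 was called, Adar, which edits double-stranded RNA so that the cell's own transcripts are not sensed. Adar had 845, 848, 825, 805 and 801 in young and 1070.3, 1129, 874, 1033 and 1024 in old aortae, again without overlap, and differed by 0.32 (standard error 0.07, adjusted p = 0.00809 in edgeR's test). Over these lists 5 of 39 tested genes (12.8%) were called, all 5 higher, near the 11.5% of all tested genes that were called in either direction (6.48% higher). Their median log2 fold change was 0.13. This count was 3 without young replicate 4 and 3 without young replicate 5, and 10 without young replicate 1, while the share of all genes called in these fits was 7.67%, 8.70% and 16.1%.

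**Figure D5:**
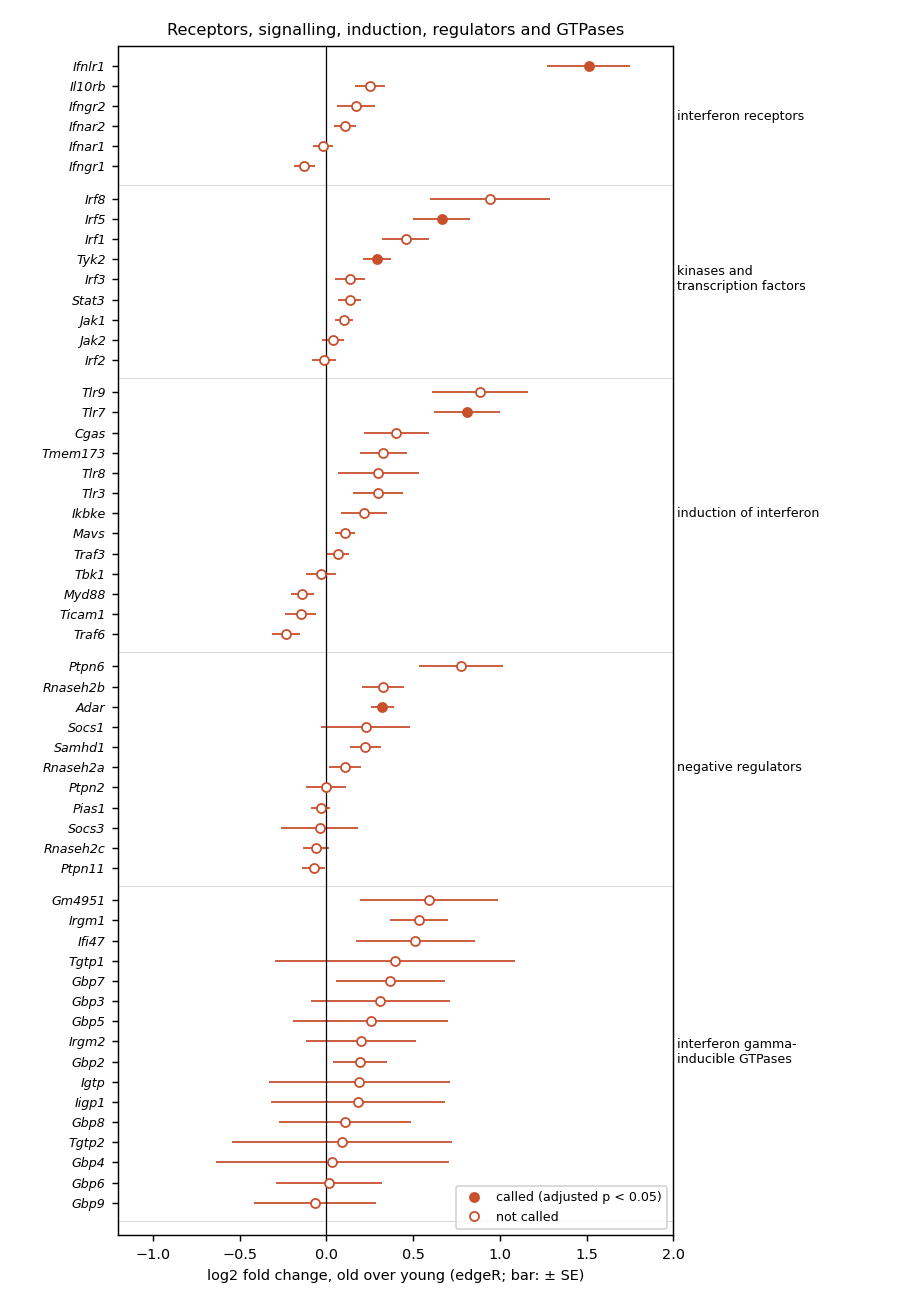
Log2 fold change of old over young aortae (x axis, edgeR estimate, bars ± SE) for the 39 tested pathway genes and the 16 tested GTPases inducible by interferon gamma, by list. Filled points are called (Ifnlr1, Tyk2, Irf5, Tlr7 and Adar), and no GTPase is filled.

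The guanylate-binding proteins and immunity-related GTPases, which are best known as targets of interferon gamma, served for comparison. Of 17 such genes 16 were tested and none was called by edgeR, 1 had an unadjusted p below 0.05, and DESeq2 and limma-voom called 1 each (13.6% and 11.3% of all genes they tested), in all 3 cases Irgm1, which differed by 0.53 (standard error 0.17, adjusted p = 0.06 in edgeR's test). Their log2 fold changes ran from −0.07 to 0.59, with a median of 0.20. Of the 16 tested GTPases 15 were above 0, as were 36 of 38 tested members and 50.8% of all tested genes. The mean score of the 17 was 7.00, 6.82, 8.13, 6.53 and 6.01 in young and 7.04, 8.15, 6.94, 6.67 and 7.29 in old aortae. Young replicate 3 and old replicate 2 were nearly equal and far above the other 8 aortae, and the averages were 6.90 ± 0.784 and 7.22 ± 0.568 (SD, n = 5 each). The spread among young aortae was wider for these genes than for the members, and a difference between the lists was not tested.

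Cell types of the vessel wall were followed through marker lists, as summed normalized counts compared by exact two-sided permutation tests over 12 lists. The lists were chosen with earlier results of these data known, which these p do not take into account. Markers of smooth muscle, the main cell of the labelled tissue, were abundant, and Myh11 among them averaged 232530.0 ± 19037 in young and 220926 ± 14371 in old aortae (mean ± SD, n = 5 each). Macrophage markers summed to 8855 to 10836 in young and 11302 to 17788 in old aortae, without overlap (exact permutation p = 0.00794, the smallest these groups allow, Benjamini-Hochberg adjusted p = 0.0238 over the 12 lists). Of the 10 macrophage markers 6 were called higher. Adgre1 (F4/80) among them had 381, 331, 409.8, 308 and 286 in young and 534, 450.0, 923, 604 and 456 in old aortae, and its log2 fold change was 0.80 (standard error 0.20, adjusted p = 0.0235 in edgeR's test). Old replicate 3 was far above the others in these markers and below old replicates 1 and 2 in the member score. The same aorta held the highest old value of 7 members, Ifit3, Ifit3b and Dhx58 among them (17.9%, against 25.4% of all tested genes).

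The other leukocyte lists differed in how far their groups were apart. Pan-leukocyte markers summed to 1163 to 1798 in young and 1825 to 4340.3 in old aortae, with 2 of 6 called, and Ptprc (CD45) among them not called at 0.78 (standard error 0.26, adjusted p = 0.0802 in edgeR's test). T cell markers summed to 19.5 to 58.3 in young and 63.0 to 222 in old aortae, where 2 of 8 genes, Cd3g and Cd4, passed the filter. Both were called higher, but Cd3g reached the filter level in 0 and Cd4 in 1 of the 5 young libraries, so that their level in old aortae let them be tested. Cd3e, under the filter, averaged 1.19 ± 1.30 and 13.5 ± 9.00 in young and old aortae (SD, n = 5 each). Neutrophil markers summed to 25.2 to 46.0 in young and 53.0 to 183 in old aortae, although Ly6g had a count in 1 library only. Of these 5 genes only Csf3r passed the filter, and it was called higher. These 3 lists had the same exact permutation p of 0.00794 and adjusted p of 0.0238. B and plasma cell markers summed to 198 to 646 in young and 433 to 1608 in old aortae and overlapped (exact permutation p = 0.0714, adjusted p = 0.107), with Cd79a averaging 10.7 ± 7.47 and 18.1 ± 23.6 (SD, n = 5 each). Dendritic cell markers summed to 431 to 678 in young and 596 to 660.4 in old aortae (exact permutation p = 0.0476, adjusted p = 0.0816), with 3 of 6 tested and none called. NK cell markers did not exceed 25.2 summed normalized counts in any aorta, none of the 5 passed the filter, and Ncr1 was at 0 in 9 libraries.

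Among the cells of the wall itself, endothelial markers summed to 19345 to 33413 in young and 9725 to 22319 in old aortae (exact permutation p = 0.0317, adjusted p = 0.0635). All 6 fold changes were below 0. Tek was called lower by edgeR, the 1 of 6 that was, DESeq2 called 4 lower (Pecam1, Cdh5, Tek and Tie1) and limma-voom 2 (Pecam1 and Tek), and Pecam1 differed by -0.72 (standard error 0.21, adjusted p = 0.0554 in edgeR's test). Smooth muscle markers summed to 794522 to 941453 in young and 733917 to 896083 in old aortae (adjusted p = 0.333 by the same exact permutation test) and fibroblast markers to 117235 to 136142 in young and 93393 to 123910.1 in old aortae (adjusted p = 0.0571). Of the 6 smooth muscle markers 1 was called, Smtn, which was higher. The 6 fibroblast markers went both ways, with Lum called higher and Pi16 and Col1a1 lower, and their log2 fold changes ran from −0.91 to 0.58 with a median of 0.03. These markers outside the naming rule were named after their values were seen. Adipocyte markers, which young replicate 1 led, summed to 2109 to 8043 in young and 1224 to 3178 in old aortae (adjusted p = 0.169), and red blood cell markers to 718 to 3640.4 in young and 809 to 4560.4 in old aortae (adjusted p = 1). In whole aortae a change in the number of cells of a type cannot be told apart from a change in RNA per cell. The part of the leukocyte markers in the members' changes was not tested. Without old replicate 3, the highest in macrophage markers, 13 members were called higher, and Cmpk2, Ifit1 and Irf7 were not among them. The same 13 were called higher without old replicate 1 and without old replicate 2, so that this loss was not particular to old replicate 3.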

How the data were processed

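Whole aortae of 10 mice were sequenced as poly(A) RNA (TruSeq Stranded mRNA). The authors filtered reads with fastp 0.20.0, aligned them with STAR 2.7.0f to GRCm38 with GENCODE M22 and counted them with featureCounts of Subread 1.6.4. The deposited values are these raw counts per gene symbol, without normalization. The strand setting and the treatment of reads with several alignments are not given in the sources used here, so that genes sharing sequence or exons may be counted less exactly.

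Counts were filtered with filterByExpr and fitted with edgeR 4.0.16 (TMM, robust quasi-likelihood F test, no covariates) under R 4.3.3, with Benjamini-Hochberg adjustment over 14614 genes. The SE of a log2 fold change is its size over the square root of F. Levels were scaled by DESeq2 1.42.0 size factors. Lengths, positions and shared 50-base windows came from GENCODE M21, and promoters from RefSeq. On counts simulated from these libraries, with 200 of 14614 genes changed by 1 log2 unit, edgeR recovered 155 with 9 false calls. Smaller changes, such as the members' median of 0.44, were not simulated. Alternatives were DESeq2, limma-voom (limma 3.58.1), other scalings and filters, a replicate block, a stricter threshold (0.01) and leaving out each mouse in turn; those for the pathway genes, the omission of 2 mice together and the score without Ifi27l2a were added after the data were seen.

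The members, lists, roles and named genes were chosen with earlier results of these data known. Values in every aorta are given for called members, for Ifi27l2a, Ifitm3 and Bst2, for the member with the highest mean count in a role without a call, and for called pathway genes; the other values per aorta (Oas3 and Adgre1) were added on seeing the results. In the list of kinases and transcription factors 1 gene is not reported here. Each library held 19640401 counts or more. Counting error was not separated from the spread between mice for single members. Relative to the level it is largest for the lowest members, such as Oas3, Oasl1 and Mx1.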

Additional observations from a re-analysis of the deposited data

Results flagged for a closer look

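In each group of 5 aortae the highest and the lowest value of every member were compared with the nearest other by Dixon's ratio, over 78 groups in all, and 4 groups held a value apart. Chance gives about 1 in 20. Ifit1 had 90.6 normalized counts in old replicate 4, where the other old aortae had 156 to 179.9. Ifi27l2a had 1648 in old replicate 2 and 843 to 1056 in the other old aortae. Trim25 had 487 in old replicate 2 and 427 to 441 in the others, and Samd9l had 1519 in young replicate 3 and 1172 to 1259 in the other young aortae.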

How the results depend on the processing

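The 16 called members stayed above 0 in the 18 alternatives at the same threshold and without both old replicates 2 and 3. At a threshold of 0.01, 7 members were called higher (as were 395 of all 14614 genes), and without both old replicates 2 and 3 also 7 (3.74% of all genes); with 1 mouse left out the count ran from 10 to 20. The count called lower ran from 0 to 1, the 1 being Helz2 without old replicate 2. The score difference was 1.13 as a mean of z-scores, another unit, and ran from 0.46 to 0.63 with 1 mouse left out. Of the pathway genes, 9 were called by DESeq2, 2 at a threshold of 0.01, 2 without old replicates 2 and 3, and 3 to 10 with 1 mouse left out, where 13.6%, 4.50%, 6.42% and 7.67% to 16.1% of all genes were called. Ifi44, which was not called, turned below 0 by limma-voom (−0.13) and with the replicate block (−0.0595), and ran from −0.51 to 0.29 with 1 mouse left out. Same-numbered young and old mice did not deviate together (correlations from −0.29 to 0.13 over genes, with 2 of 5 young mice closest to their own number), so that the numbers pair nothing. A fit with the replicate block called 17 members higher and 1261 genes in all, against 1676 without it. Over the 38 tested members, 659 values under alternatives kept direction and side of the threshold, 38 lost the call, 19 gained one and 6 turned in direction. Depth limits Oas3, which failed the filter, and the ligands, at 0 to 2 counts per library.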

Other observations

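Levels per kilobase of exon, which set members beside each other only roughly, spanned from 0.986 normalized counts per kilobase for Oas3 to 3987 for Ifitm3 in young aortae. The length is the union of all annotated exons of a gene, so that the order of members depends on the annotation. For Irf7 this union, 3776 bases, fills the whole gene. After Ifitm3 came Ifi27l2a at 3686, Bst2 at 592, Ifi35 at 336, Samd9l at 236 and Ifit2 at 138 per kilobase. Ifitm3, Samd9l and Ifit2 of these 6 were called higher in old aortae. Ifi35 was not called, with normalized counts of 581 ± 31.6 in young aortae and 647 ± 27.9 in old ones (SD, n = 5 each), and 16.8% of its exon bases are overlapped by an antisense gene.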
